A study of Homo sapiens with 12 samples.

Results

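In A498 cells given siRNA against both ELOVL2 and ELOVL5, ELOVL5 itself and 10 other genes were lower than in cells given siRNA against ELOVL2 alone, and no gene was higher past the threshold. The comparison sets 3 libraries of cells with both targeted (called the double knockdown) against 3 libraries of cells with ELOVL2 targeted alone (siELOVL2), which are 6 of the 12 libraries in the deposited table. They were chosen by treatment label only, with no measured value used. The spread was estimated over all 12 libraries, and in a fit on these 6 alone only ELOVL5 passed the threshold. The other 6 libraries, 3 with a control siRNA and 3 with the ELOVL5 siRNA alone, show what the ELOVL5 siRNA did in cells without the ELOVL2 siRNA, and share no library with the main comparison.

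A498 is an established human kidney carcinoma line with epithelial features. All 4 groups were transfected, so the siELOVL2 libraries serve as the reference and carry the ELOVL2 siRNA too. RNA was sequenced from a single line in 1 labelled batch, and the sources used here do not give the siRNA sequences, doses, time to harvest or whether 1 siRNA or a pool targeted each gene. In this bulk RNA, fewer cells of a kind and less RNA per cell cannot be told apart. The labels call the 3 replicates of a group biological without saying what separated them. The p-values therefore only set a difference against the spread within the 4 groups of these 12 libraries.

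ELOVL2 and ELOVL5 are enzymes of the endoplasmic reticulum membrane that add carbons to polyunsaturated fatty acids. ELOVL5 acts mainly on the shorter polyunsaturated chains made by the desaturases FADS1 and FADS2, and ELOVL2 carries the longer ones further, so the products of the one are substrates of the other. An siRNA is a short duplex that directs cleavage of the transcript it matches along its whole length. It can also lower other transcripts whose 3′ untranslated region (3′ UTR) pairs with the first bases of its guide strand, as a microRNA does through its seed.

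Several of the genes that fell hold the 7-base word GAGAGGA in their 3′ UTR, a word that was chosen on the ELOVL5 siRNA's effect in control cells. Among the 16367 words of 7 bases with at least 20 carriers, it had the lowest carrier mean, scaled by the square root of the number of carriers, in siELOVL5 minus control. That comparison uses only libraries outside the main one, and the scan covered 8744 genes at or above the median level with a 3′ UTR in GENCODE 29. The word was then read in the double knockdown. The sites below, from the genes with called falls described next and from ELOVL5, show the word in capitals within 23 bases of the transcript strand, 5′ to 3′, with coordinates on GRCh38 as GENCODE 29 annotates it.
ELOVL5, 3′ UTR, chr6:53268259-53268281, minus strand: ttccaccagtgcgaGAGAGGAtg
TBC1D16, 3′ UTR, first of 3 sites, chr17:79940720-79940742, minus strand: cttttgggcaacatGAGAGGAac
GNG12, 3′ UTR, first of 3 sites, chr1:67704502-67704524, minus strand: atgagcccagctgaGAGAGGAgc
MIER1, 3′ UTR, chr1:66985662-66985684, plus strand: tggtaaacttttatGAGAGGAat
EIF4EBP2, 3′ UTR, first of 2 sites, chr10:70423673-70423695, plus strand: atatattttagaaaGAGAGGAag
UBE2E3, 3′ UTR, chr2:181063330-181063352, plus strand: tgtcagtttgtaatGAGAGGAtt
COMMD8, 3′ UTR, chr4:47451455-47451477, minus strand: gaaattacatggttGAGAGGAaa
Only the word is shared by all of these sites; the flanking bases differ. Of the 8744 genes scanned, 1587 (18.1%) carried the word on the transcript strand, and the share rose with length, from 6.09% of 3′ UTRs under 1000 bases to 16.7% of those from 1000 to 3000 bases and 38.7% of longer ones. A match in a 3′ UTR is a description of the letters, and whether the ELOVL5 siRNA acts through it was not tested.

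Depth before the authors' normalization was estimated from ties among low values at 9.06 to 9.48 M reads in the siELOVL2 libraries and 6.70 to 8.80 M in the double-knockdown libraries, so the double knockdown was somewhat shallower. Values are the deposited normalized ones, which are on the scale of read counts and are not corrected for gene length. Fold changes are differences of log2(value + 1), and a gene is called when its limma adjusted p lies under 0.05 over all 18648 genes tested. Epithelial and proximal tubule markers had summed values of 19202 to 21890 in siELOVL2 and 18384 to 23707 in the double knockdown. Of the 31 in that list, 4 were at 0 in all 6 libraries (SLC22A6, SLC22A8, CLDN2 and NAT8). Among 22 leukocyte markers, 7 were at 0 in all 6 libraries, including PTPRC and the CD3 chains, and the sums were 562 to 612 and 519 to 680. The endothelial marker sums did not overlap, with 353 to 400 in siELOVL2 and 412 to 428 in the double knockdown. Most of these sums came from 1 gene, EGFL7, with 335, 347 and 310 against 383, 373 and 360. EGFL7 was not called (log2 fold change 0.17), and 6 of the 11 tested endothelial markers lay above 0. The fibroblast and pericyte sums overlapped, with 354 to 399 and 335 to 394. In that list 4 of 15 markers were at 0 in all 6 libraries (THY1, DCN, LUM and PDPN). The part of other cell types in the results was not tested.

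ELOVL5 had values of 1791, 1994 and 2328 in the siELOVL2 libraries and 177, 172 and 187 in the double-knockdown libraries. The double knockdown therefore kept 8.76% of the siELOVL2 mean, a log2 fold change of -3.50 (SE 0.0925, limma adjusted p 3.10e-10), with no overlap. In the other pair of groups ELOVL5 stood at 1939, 1954 and 2038 with the control siRNA and at 147, 141 and 156 with siELOVL5 alone, or 7.48% of control. The difference between the 2 falls was 0.23 on the log2 scale (95% interval -0.05 to 0.52), and the interaction test did not call it. ELOVL2, the target shared by both groups, had values of 27.0, 30.1 and 18.4 without and 25.4, 26.5 and 19.9 with the ELOVL5 siRNA, against 299, 299 and 211 in control cells. Its groups overlapped, and its log2 fold change was -0.05 (95% interval -0.57 to 0.47). An ELOVL2 change within that interval was not detectable.

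**Figure D1:**
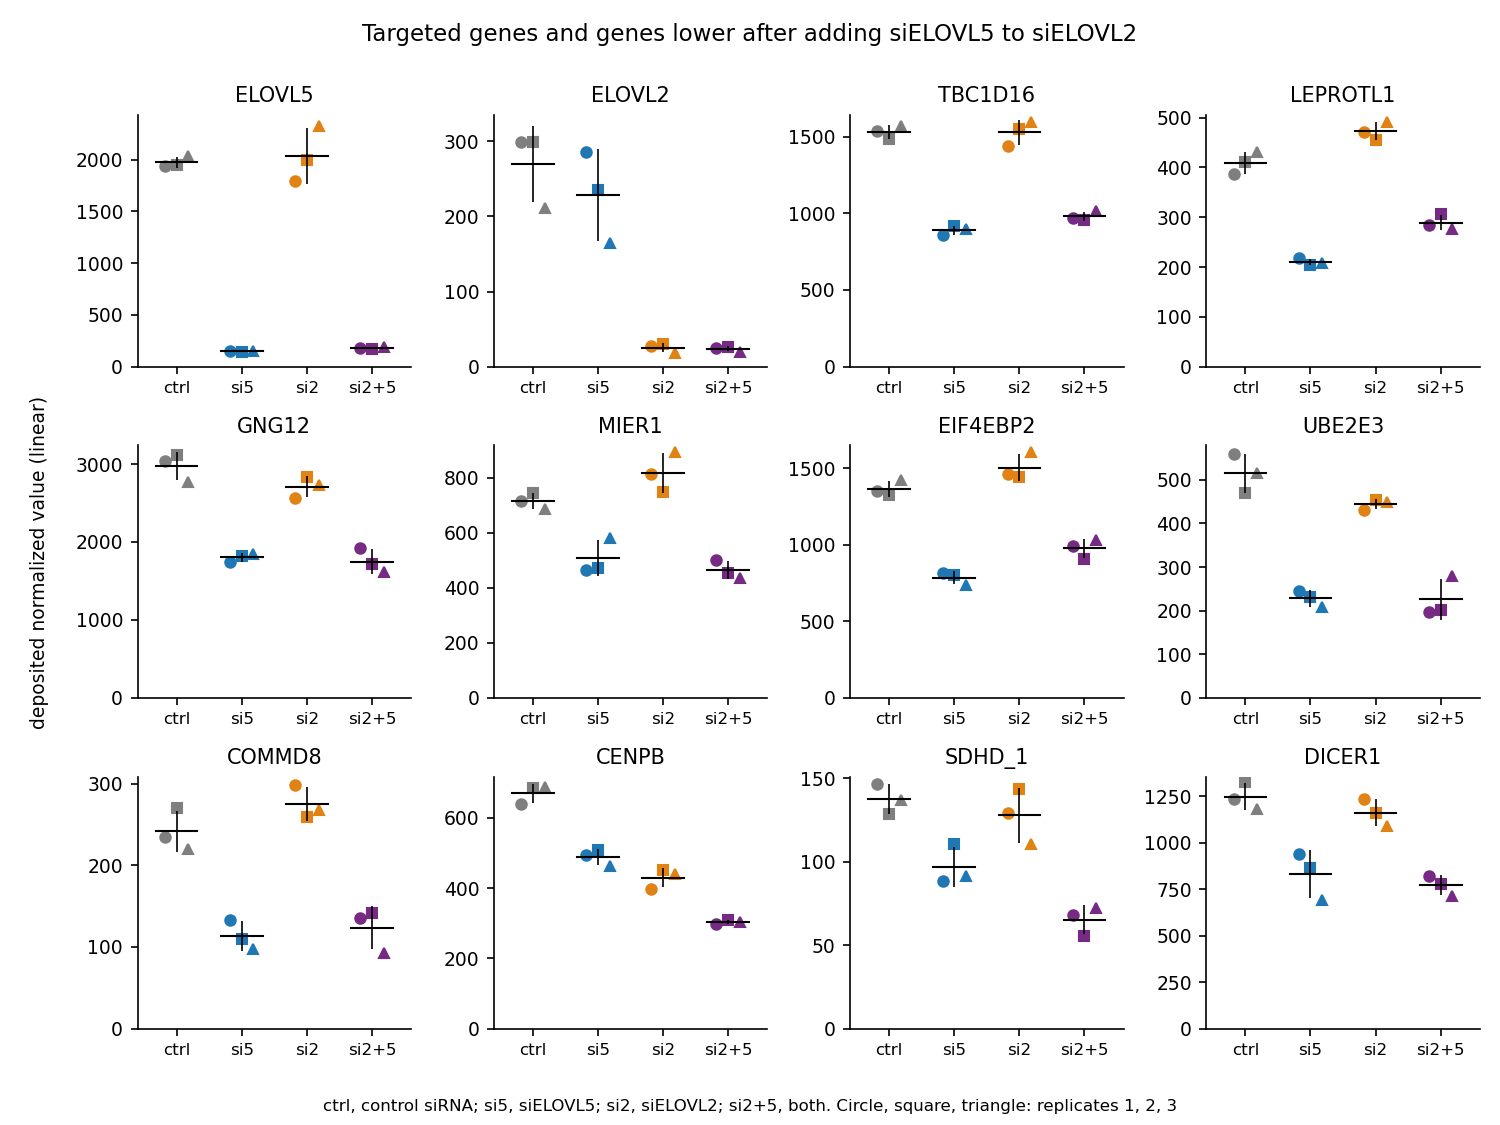
Deposited normalized values (linear axis from 0) of the targeted genes, 9 of the other called falls and DICER1 in all 12 libraries, with the mean as a horizontal line and the SD over 3 replicates as a vertical line. In every panel but ELOVL2, the 3 double-knockdown libraries lie below the 3 siELOVL2 libraries.

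In all, 11 genes were called lower, 0.059% of the genes tested, and 0 were called higher (0% of the genes tested). By limma at an unadjusted p under 0.05, 388 genes lay lower (2.08%) and 284 higher (1.52%). Groups that do not overlap are much more common than calls in this design, with 808 genes (4.33%) having all double-knockdown libraries lower and 844 (4.53%) higher. The standard error of a log2 fold change had a median of 0.116 over the 9324 genes at or above the median level (93.8), and the smallest called change was 0.50 in size. Changes much smaller than that were not detectable at this replication.

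The falls with the most stable calls were in TBC1D16, LEPROTL1 and EIF4EBP2. TBC1D16, a GTPase-activating protein for Rab GTPases, had values of 1439, 1549 and 1593 in siELOVL2 and 967, 957 and 1015 in the double knockdown. Its log2 fold change was -0.64 (SE 0.0658, adjusted p 0.00269), and like ELOVL5 it was called whichever of the 12 libraries was left out. LEPROTL1, a small membrane protein related to the leptin receptor overlapping transcript, stood at 472, 455 and 492 against 285, 306 and 277. It fell by 0.71 (SE 0.0808, adjusted p 0.00566), and only leaving out siELOVL2 replicate 3 ended its call (adjusted p 0.0642). It had the lowest adjusted p of the called genes with no GAGAGGA in the scanned 3′ UTR. EIF4EBP2, which restrains translation by binding the cap-binding factor eIF4E, went from 1460, 1445 and 1605 to 994, 904 and 1029 (log2 fold change -0.62, SE 0.0764, adjusted p 0.00719). Its call ended without double-knockdown replicate 2 or siELOVL2 replicate 3, with an adjusted p of at most 0.0678. In all 3 genes the highest double-knockdown library lay below the lowest siELOVL2 library.

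GNG12, MIER1, UBE2E3 and COMMD8 were called with less stable p-values. GNG12, a gamma subunit of heterotrimeric G proteins, had values of 2568, 2837 and 2731 in siELOVL2 and 1919, 1712 and 1615 in the double knockdown (log2 fold change -0.64, adjusted p 0.00719). MIER1, a transcriptional corepressor that recruits histone deacetylases, stood at 813, 750 and 895 and then at 500, 455 and 436 (-0.82, adjusted p 0.00719). Both groups of 3 were fully separated for each gene. UBE2E3, a ubiquitin-conjugating enzyme, fell from 430, 453 and 450 to 196, 202 and 279 (-0.99, SE 0.128, adjusted p 0.00921), with double-knockdown replicate 3 the least reduced. COMMD8, a subunit of the COMMD complex involved in endosomal sorting, had 298, 259 and 268 against 135, 142 and 93.2 (-1.17, SE 0.165, adjusted p 0.0202). It had the largest fall among the called genes above the median level other than ELOVL5. The calls of these 4 genes rest on the full set of replicates: leaving out 1 library ended the call in 3 of 12 cases for GNG12 and for MIER1, 5 for UBE2E3 and 6 for COMMD8, with adjusted p up to 0.094, 0.0678, 0.094 and 0.153.

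CENPB, SDHD_1 and SOWAHB lay nearest the threshold. CENPB, a protein that binds centromeric alpha-satellite DNA, had 398, 451 and 440 in siELOVL2 and 298, 308 and 302 in the double knockdown (-0.50, adjusted p 0.0442). It was already lower with the ELOVL2 siRNA alone, from 638, 685 and 686 in control cells (adjusted p 0.00123), and the double knockdown held 45.2% of the control mean. CENPB was the 1 gene of the 11 that limma also called in siELOVL2 minus control. SDHD_1 is 1 of 2 entries under SDHD, a membrane-anchor subunit of succinate dehydrogenase, and which locus or model it counts cannot be told from the table. SDHD_1 stood at 129, 143 and 111 and then at 67.8, 55.4 and 72.2 (-0.96, adjusted p 0.0447). The other entry was not among the 11 called genes and its values are not given here, so a fall of SDHD as a whole is not shown. SOWAHB, an ankyrin-repeat protein, was named outside the rule after its values were seen. It was listed at 0 in all 3 double-knockdown libraries against 4.92, 2.92 and 4.17 in siELOVL2 (adjusted p 0.0485), values so low that no fold is given. Leaving out any 1 library other than siELOVL5 replicate 3 ended each of these 3 calls, with adjusted p up to 0.379.

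The number of calls depends on the error estimate. All 12 libraries shared 1 estimate of the spread, and leaving out siELOVL5 replicate 3, which is in neither compared group, raised the count from 11 to 16 lower. Leaving out siELOVL2 replicate 3 left 2, double-knockdown replicate 2 left 3, siELOVL2 replicates 1 and 2 left 5 each, double-knockdown replicate 1 left 6 and control replicate 1 left 7. Fitted on the 6 compared libraries alone, limma called only ELOVL5, and the next lowest adjusted p was 0.162, for TBC1D16 and LEPROTL1.

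No gene was called higher. The 5 genes with the smallest unadjusted p among those with separated groups and a level above the median, all of which missed the threshold, were CPA4, SLC16A13, POMK, ANKRD10 and COPS7A. CPA4, a secreted carboxypeptidase, had 417, 506 and 357 in siELOVL2 and 579, 606 and 761 in the double knockdown (0.61, 95% interval 0.31 to 0.90, adjusted p 0.52). SLC16A13, a monocarboxylate transporter, had 154, 144 and 160 against 215, 202 and 238 (0.51, adjusted p 0.732). POMK, a kinase that phosphorylates a mannose on dystroglycan, had 243, 204 and 228 against 285, 332 and 291 (0.43, adjusted p 0.792). In each of these genes the lowest double-knockdown library lay above the highest siELOVL2 library. ANKRD10 and COPS7A, a subunit of the COP9 signalosome, had smaller differences of 0.39 and 0.25.

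The ELOVL5 siRNA was then read on both backgrounds. In siELOVL5 minus control, 26 genes were called (0.139% of the genes tested), 23 lower (0.123%) and 3 higher (0.0161%). Every one of the 23 lay lower in the double knockdown than in siELOVL2 as well, with groups that did not overlap, against 4.33% of all genes tested with the double knockdown fully lower. Of these, 20 had an unadjusted p under 0.05 with limma, against 2.08% of all genes lower at that limit, and 8 were called, against 0.059%. The fit gives both comparisons the same spread for a gene, so the calls are not independent although the libraries differ. Fitted on its own libraries alone, each comparison called only ELOVL5. The 8 were ELOVL5, TBC1D16, LEPROTL1, GNG12, EIF4EBP2, UBE2E3, COMMD8 and CENPB. They make up 34.8% of the 23 and 72.7% of the 11. The other 3 of the 11 also had siELOVL5 libraries wholly below control, as did 7.04% of all genes, with log2 fold changes there of -0.50 for MIER1 (adjusted p 0.105) and -0.51 for SDHD_1 (adjusted p 0.306), and values for SOWAHB of 2.92, 4.75 and 2.92 in control and 1.08, 1.00 and 2.08 with siELOVL5.

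**Figure D2:**
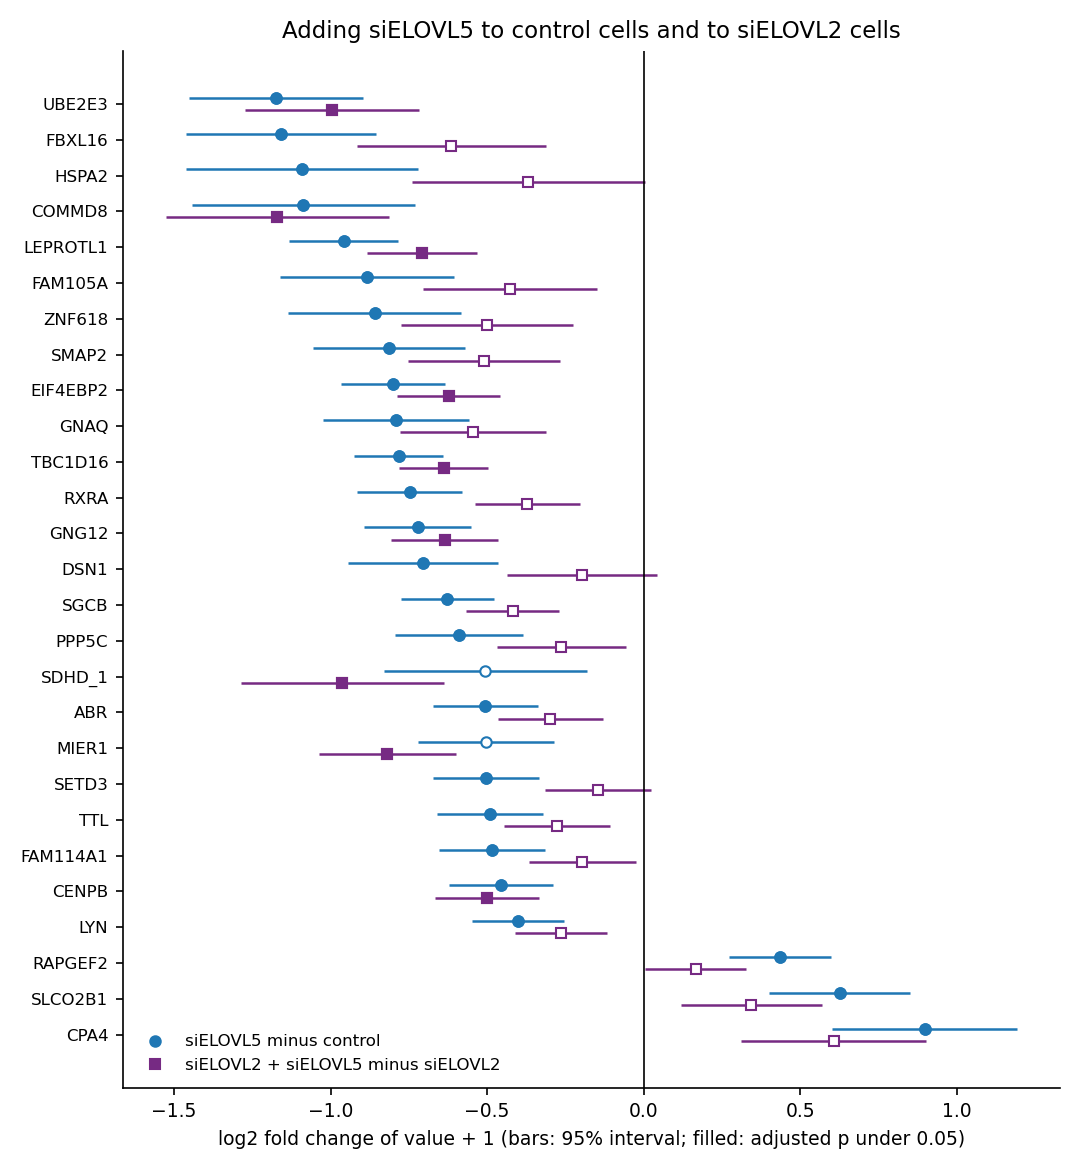
Differences of log2(value + 1) with 95% intervals of the genes called in either comparison, other than ELOVL5 and SOWAHB, after adding siELOVL5 to control cells (circles) and to siELOVL2 cells (squares), with filled symbols for adjusted p under 0.05. All 24 falls and 3 rises lie on the same side of 0 on both backgrounds, and most squares lie nearer to 0.

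Most of the shared falls were smaller in the siELOVL2 background. The median log2 fold change of the 23 genes was -0.78 in siELOVL5 minus control and -0.50 in double knockdown minus siELOVL2, and 21 of 23 were smaller in size in the latter. The genes were chosen on siELOVL5 minus control, which by itself tends to make that value the larger. The interaction tests the difference gene by gene, and limma called none of the 18648 (0%), with 522 (2.8%) at an unadjusted p under 0.05. Among the 23 genes, 9 were at an unadjusted p under 0.05 and the lowest adjusted p was 0.996. Without the intensity trend 9 genes were called, none of them among the 23.

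RXRA, HSPA2 and FBXL16 are described here after their values were seen, for wide gaps between the backgrounds. RXRA, the retinoid X receptor that pairs with PPAR, LXR and other nuclear receptors, had 1461, 1464 and 1534 in control, 869, 942 and 845 with siELOVL5, 1430, 1578 and 1628 with siELOVL2 and 1161, 1132 and 1289 in the double knockdown. Its falls were -0.75 and -0.37, an interaction of 0.38 (95% interval 0.14 to 0.61, unadjusted p 0.00441). HSPA2, a testis-rich member of the HSP70 chaperones, had differences of -1.09 and -0.37, with an interaction of 0.72 (95% interval 0.20 to 1.25). FBXL16, an F-box protein, had -1.16 and -0.61, with an interaction of 0.54 (95% interval 0.12 to 0.97). DSN1 and FAM105A also had wider interactions than RXRA, of 0.51 (95% interval 0.17 to 0.84) and 0.46 (95% interval 0.07 to 0.85). After adjustment none of these differences between backgrounds passed the threshold. In the other direction, MIER1 fell by 0.82 on the siELOVL2 background, where siELOVL5 alone gave -0.50, an interaction of -0.31 (95% interval -0.62 to -0.01) that was not called either.

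The other genes called lower with siELOVL5 alone kept the same side with less certainty. GNAQ, the alpha subunit that couples receptors to phospholipase C, had 1581, 1750 and 1831 in siELOVL2 and 1069, 1118 and 1359 in the double knockdown (-0.55, adjusted p 0.259). SGCB, a sarcoglycan of the dystrophin complex, had 1088, 1065 and 1022 against 794, 746 and 838 (-0.42, adjusted p 0.0625). SMAP2, ZNF618 and FAM105A had -0.51, -0.50 and -0.43, and ABR, TTL, LYN, PPP5C, FAM114A1, DSN1 and SETD3 lay between -0.30 and -0.15. For all 12 of these genes the libraries of the compared groups were separated. The 3 rises of siELOVL5 alone also lay higher in the double knockdown: CPA4 as given above, SLCO2B1, an organic anion transporter, with 907, 845 and 862 against 1144, 1183 and 998 (0.34), and RAPGEF2, an exchange factor for Rap, with 0.17 and overlapping groups. None of the 3 was called.

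GAGAGGA was counted among the called falls. Of the 11, 8 were among the scanned genes, and 6 of these 8 carried the word, against 18.1% of all scanned genes: TBC1D16 with 3 sites in 8516 bases, GNG12 with 3 in 3985, EIF4EBP2 with 2 in 6871, MIER1 with 1 in 3131, COMMD8 with 1 in 849 and UBE2E3 with 1 in 553. Among carriers 0.378% were called lower, and among the 7157 other genes 0.0279% (2 genes). Of the 6 carriers, 5 were also called in siELOVL5 minus control, the comparison that chose the word, and only MIER1 was not, so these counts are a description and not independent of the choice. LEPROTL1 and CENPB did not carry it. ELOVL5, SDHD_1 and SOWAHB were outside the scan. SDHD, matched without the table's suffix, holds 1 site in 824 bases, and SOWAHB holds none. ELOVL5 holds the word once in its whole transcript, in the 3′ UTR, at the site shown above. TBC1D16, GNG12, EIF4EBP2 and MIER1 have 3′ UTRs of the longest class, in which 38.7% carry the word, and UBE2E3 and COMMD8 of the shortest, in which 6.09% do. Carriers as a group hardly differed from the others, with a median log2 fold change of -0.01 against 0.01. In siELOVL5 minus control, which chose the word, 15 of 21 scanned genes called lower carried it. Of the 12 shared falls of siELOVL5 alone just described, GNAQ, SGCB, SMAP2, ZNF618, ABR, TTL, LYN, PPP5C and DSN1 carry it, FAM114A1 and SETD3 do not, and FAM105A had no matching 3′ UTR entry. RXRA and HSPA2 do not carry it either, and FBXL16 has 1 site.

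DICER1, the nuclease that produces microRNAs, is a carrier with 2 sites in 4270 bases, and was singled out after its values were seen. It had 1233, 1159 and 1090 in siELOVL2 and 822, 780 and 715 in the double knockdown, with no overlap (log2 fold change -0.59, SE 0.107, adjusted p 0.13). The same siRNA on control cells gave 1236, 1323 and 1181 against 941, 862 and 690 (-0.60, adjusted p 0.0594). It missed the threshold in both comparisons, and in the main one it passed with a term for the replicate number (adjusted p 0.0093). PRKAA1, the alpha 1 catalytic subunit of the energy sensor AMPK, is a carrier with 1 site in 3399 bases, named after its values were seen as well. It had 1056, 1080 and 1130 against 827, 773 and 883 (-0.40, adjusted p 0.0975). In the list of RNA interference genes, DICER1 was 1 of 16 tested, and the list's median was 0.03. TNRC6A, a partner of the Argonaute proteins, was at 0.23 and TNRC6B at 0.20, neither of them called.

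The 29 gene lists together held no gene that limma called. SDHD, an oxidative phosphorylation gene, was left out of its list because the table numbers its copies. Each is described by its median log2 fold change beside that of all 18648 genes tested, which was 0.00. For the enzymes around ELOVL5 the comparison showed little movement. The list of fatty acid elongation and desaturation had 19 tested genes with a median of -0.01, and 9 lay above and 10 below 0. ELOVL5 itself is not in that list, whose lowest member was at -0.18. FADS2, the delta-6 desaturase upstream of ELOVL5, had 1214, 2023 and 2384 in siELOVL2 and 1123, 1536 and 2544 in the double knockdown, and SCD, the delta-9 desaturase, had 6942, 13647 and 17859 against 6942, 9307 and 17859. Both genes ranged widely within each group and overlapped between groups (-0.14, 95% interval -0.90 to 0.62, and -0.18, -1.15 to 0.78). PTPLAD1, also called HACD3, a dehydratase of the elongation cycle, was at 0.02. Cholesterol biosynthesis and uptake (-0.04, 9 of 28 above 0), de novo fatty acid synthesis (-0.02, 5 of 13), fatty acid oxidation and PPAR targets (0.05, 20 of 32), lipid droplets and triglyceride storage (0.05, 12 of 21) and phospholipid remodelling and eicosanoid synthesis (-0.01, 14 of 30) were close to the median of all genes too. Single libraries turned the sign of both synthesis lists. Cholesterol genes were at -0.13 (3 of 28 above 0) without double-knockdown replicate 3 and also at -0.13 without siELOVL2 replicate 1, but at 0.04 without double-knockdown replicate 1 and 0.08 (18 of 28) without siELOVL2 replicate 3. De novo synthesis was at -0.17 (3 of 13) without double-knockdown replicate 3 and -0.14 without siELOVL2 replicate 1, but at 0.03 (10 of 13) without siELOVL2 replicate 3. The elongation list ranged from -0.12 without siELOVL2 replicate 1 to 0.07 without double-knockdown replicate 1. FASN, fatty acid synthase, had -0.04 (95% interval -0.60 to 0.52). For FADS2, SCD and FASN, replicate 1 was the lowest and replicate 3 the highest library in each of the 4 groups. SCD stood at 6161, 10825 and 14339 in control and 6161, 10928 and 16189 with siELOVL5, close to the same-numbered libraries of the other groups.

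Interferon-stimulated genes lay above 0 in 42 of 45 cases with a median of 0.28, against 49.8% of all genes above 0, and with limma none reached an unadjusted p under 0.05. The groups were separated, all higher, in 7 of them (4.53% of all genes), listed for that: IFI35, IFI44, IFI44L, OASL, PARP9, PARP12 and PARP14. The shift was carried mostly by 1 library. Relative to each gene's siELOVL2 mean, the list's median was 0.66 in double-knockdown replicate 1, 0.12 in replicate 2 and 0.06 in replicate 3, and 0.13, -0.09 and -0.01 in the siELOVL2 libraries. Without double-knockdown replicate 1 the median was 0.11, with 34 of 45 above 0. MX1, a GTPase with antiviral activity, had 1800, 1230 and 1188 in siELOVL2 and 3376, 1901 and 1504 in the double knockdown, with overlap (0.62, 95% interval -0.23 to 1.48). PARP14 had 2087, 1815 and 1921 against 2856, 2222 and 2118 (0.29), and LGALS3BP, a secreted glycoprotein, was at 0.09. In siELOVL5 minus control the list's median was 0.76, with 44 of 45 above 0 (48.2% of all genes) and 35 higher at an unadjusted p under 0.05 (4.74% of all genes), but none called there either. Relative to the siELOVL2 mean, siELOVL5 replicate 3 stood highest there, with 1.51 against 0.88 and 0.29 in replicates 1 and 2 and 0.19, -0.24 and 0.31 in the control libraries. The same library also stood above replicates 1 and 2 in the inflammatory list at 1.42, the immediate early list at 1.24 and the ATF4 list at 1.19.

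Related immune lists lay on the same side with smaller medians. Over all genes tested, 49.8% lay above 0 and 1.52% were higher at an unadjusted p under 0.05 with limma. Double-stranded RNA sensors and interferon signalling had a median of 0.15, with 24 of 27 above 0, and 0.10 without double-knockdown replicate 1. DHX58 (0.41) and IFNAR1 (0.20) were the 2 at an unadjusted p under 0.05, and are named for that. ADAR, the RNA editor, and EIF2AK2, the kinase PKR, were at 0.13 and 0.21. MHC class I antigen presentation had a median of 0.11 with 18 of 20 above 0. Its 3 most abundant members were CALR, the chaperone calreticulin, at -0.06 with all double-knockdown libraries lower, B2M at 0.09 and HLA-B at 0.12. Inflammatory cytokines, chemokines and NF-kappaB feedback genes had a median of 0.15 with 19 of 29 above 0, which became -0.03 without double-knockdown replicate 1 and -0.07 without siELOVL2 replicate 3, and 0.32 and 0.30 without double-knockdown replicate 3 and siELOVL2 replicate 1. CSF1, the macrophage growth factor, lay lower (11318, 8290 and 6684 against 8146, 6537 and 4348) with overlapping groups.

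**Figure D3:**
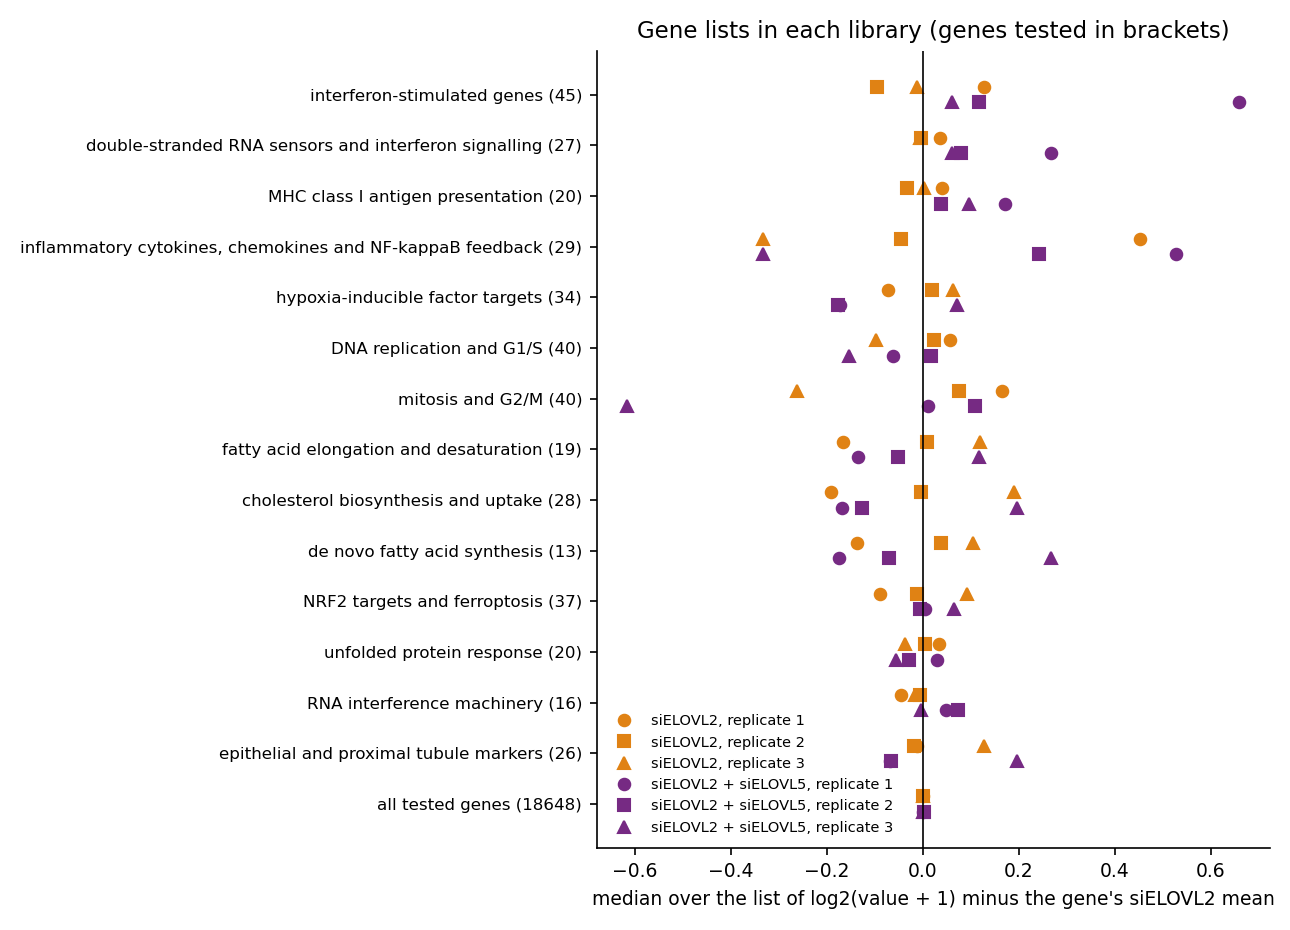
Median over each gene list of log2(value + 1) minus the gene's mean in siELOVL2, for each of the 6 compared libraries (circles, squares and triangles for replicates 1, 2 and 3). Double-knockdown replicate 1 stands apart at 0.66 for interferon-stimulated genes, and replicate 3 at -0.61 for mitosis and G2/M.

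Mitosis and G2/M genes lay below 0 in 38 of 40 cases with a median of -0.14, against 49.1% of all genes below 0, and none was at an unadjusted p under 0.05. The sign turned without double-knockdown replicate 3, to 0.07 with 28 of 40 above 0. Relative to the siELOVL2 mean, the list's median was -0.61 in that library and 0.01 and 0.11 in replicates 1 and 2. Replicate 3 was the lowest library of this list in the other groups too, at -0.26 against 0.17 and 0.08 in siELOVL2, -0.69 against 0.41 and 0.27 in siELOVL5, and 0.16 against 0.60 and 0.45 in control. Without siELOVL2 replicate 3 the median was -0.28, and without siELOVL2 replicate 1 it was -0.07. It was -0.25 and -0.29 without double-knockdown replicates 1 and 2. TOP2A, the topoisomerase of condensing chromosomes, had 4341, 4690 and 3832 in siELOVL2 and 3941, 4405 and 2986 in the double knockdown, and MKI67 had 3796, 3586 and 2863 against 3293, 3614 and 2456. In both genes the groups overlapped and replicate 3 was the lowest of each. For DNA replication and G1/S the median was -0.07, and 25 of 40 genes were below 0. It was -0.01 with 22 of 40 below 0 without double-knockdown replicate 3, and -0.03 without siELOVL2 replicate 1. MCM7 and RRM2 were at -0.12 and 0.10. The 3′ UTR base composition also set replicate 3 apart: the median of genes in the quintile of lowest GC content minus that of the highest quintile was -0.18 there, -0.058 and -0.014 in replicates 2 and 1, and -0.025, -0.021 and 0.036 in the siELOVL2 libraries. Its part in the list medians was not tested.

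Hypoxia-inducible factor targets are of interest in A498, a line lacking functional VHL. The list lay below 0 in 29 of 34 cases with a median of -0.09, which was -0.17 without double-knockdown replicate 3, -0.02 without replicate 1 and -0.05 without replicate 2, and -0.15 and -0.06 without siELOVL2 replicates 1 and 3. Its 3 members at an unadjusted p under 0.05, named for that, were HIF1A (1826, 1849 and 1986 against 1502, 1530 and 1701), CCND1 (2441, 2655 and 2471 against 1994, 1620 and 2257) and TGFA (2616, 2891 and 2316 against 1884, 1647 and 2167). Over all genes, 2.08% were lower at an unadjusted p under 0.05 and 4.33% had the double knockdown fully lower. All 3 had separated groups, with log2 fold changes of -0.26, -0.38 and -0.46, and none was called. GAPDH and ALDOA, glycolytic targets of high level, were at -0.05 and 0.03.

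The remaining lists had medians within 0.05 of 0, apart from 2 marker lists at low levels. NRF2 targets and ferroptosis had 0.00 (21 of 37 above 0), with TXNRD1 at -0.03 and FTL at 0.09. The unfolded protein response had -0.01 (6 of 20 above 0) and ATF4 and amino acid response genes -0.01 (12 of 26). The p53 targets had -0.02 (15 of 30) and apoptosis regulators 0.00 (11 of 23). Nuclear-encoded oxidative phosphorylation had -0.01 (17 of 38), lysosome and autophagy 0.03 (20 of 32), and insulin receptor, FOXO and PI3K-AKT feedback -0.01 (12 of 26). Mesenchymal, matrix and adhesion genes had 0.00 (17 of 34), TGF-beta and Hippo target genes 0.05 (16 of 27) and immediate early genes and ERK feedback -0.02 (12 of 29). Epithelial and proximal tubule markers had 0.02 (14 of 26), leukocyte markers 0.00 (5 of 11), endothelial markers 0.17 (6 of 11, and -0.17 with a low-value filter at 10), and fibroblast and pericyte markers -0.11 (3 of 11). Within these lists the keratins KRT8 and KRT18, at -0.01 and 0.01, and the brush-border peptidase ANPEP, at 0.07, had intervals that included 0.

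Of the genes called with the ELOVL2 siRNA alone, CENPB, given above, was also called when ELOVL5 was targeted too, and 11 others named by the largest fold are described here. siELOVL2 minus control called 254 genes (1.36%), and it shares the siELOVL2 libraries with the main comparison. For genes chosen on it, the levels and differences given are therefore a description and not independent of the choice. HMOX1, heme oxygenase 1, had 3298, 2655 and 2508 in control, 1883, 1669 and 1441 with siELOVL5, 18624, 14723 and 13851 with siELOVL2 and 17859, 16379 and 9307 in the double knockdown. Both groups with the ELOVL2 siRNA stood far above both without it, and they overlapped each other (-0.16, 95% interval -0.61 to 0.29). SLC48A1, a heme transporter of endosomes and lysosomes, had 285, 349 and 336 in control, 546, 658 and 647 with siELOVL2 and 555, 566 and 505 in the double knockdown. FBXO32, a muscle-atrophy ubiquitin ligase, had 836, 842 and 829, then 2065, 1621 and 1577, and then 2203, 1919 and 1456. In both genes the siELOVL2 and double-knockdown groups overlapped. GALNT9, an enzyme that starts O-linked glycans, lay lowest of these relative to siELOVL2, with 551, 562 and 880 in control, 1011, 1134 and 1626 with siELOVL2 and 841, 784 and 1041 in the double knockdown (-0.48, adjusted p 1). The groups overlapped, and siELOVL5 alone gave 347, 361 and 413.

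**Figure D4:**
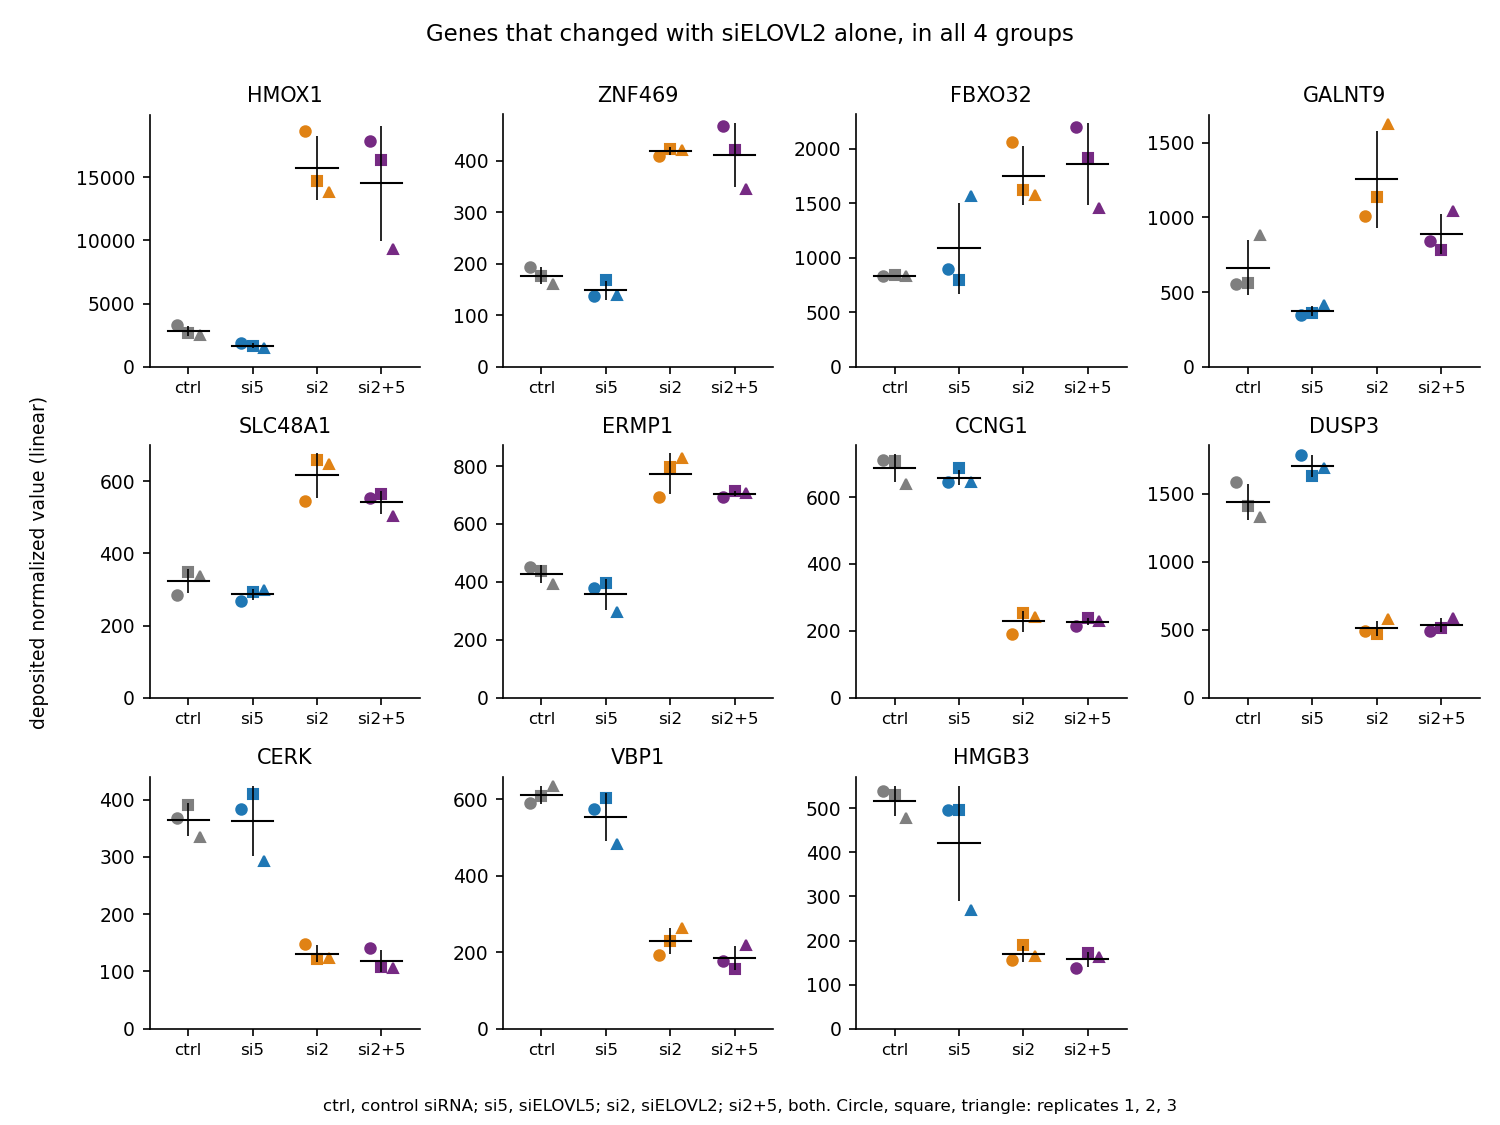
Deposited normalized values (linear axis from 0) in all 4 groups of genes called in siELOVL2 minus control, with means as horizontal and SDs over 3 replicates as vertical lines. In every panel the siELOVL2 and double-knockdown libraries overlap.

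The genes lower with siELOVL2 alone gave a like picture. CCNG1, cyclin G1, had 712, 708 and 638 in control, 192, 253 and 241 with siELOVL2 and 215, 238 and 229 in the double knockdown, a difference of 0.00 (95% interval -0.22 to 0.23). DUSP3, a dual-specificity phosphatase, had 1585, 1411 and 1330, then 489, 472 and 576, and then 494, 514 and 589. CERK, ceramide kinase, stood at 369, 391 and 335, then at 148, 122 and 123, and then at 141, 107 and 106. VBP1, a prefoldin subunit, was at -0.31 with overlapping groups (95% interval -0.61 to -0.01). HMGB3, whose reads may be shared with near-identical copies, was at -0.11. For the 11 genes shown in that plot, the difference between double knockdown and siELOVL2 was called for none.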

How the data were processed

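The authors' deposited table gives each of 57773 genes a normalized signal in each of the 12 libraries. From the values, the authors had quantile normalized what were read counts: all columns share the same values, in steps of 1 over 12. The sources used here name no aligner, counting tool, annotation or genome build. Depth was estimated from the order of tied low values.

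Of these genes, 18648 passed a filter (value 1 or more in 3 or more libraries). limma 3.58.1 in R 4.3.3 was fitted to log2(value + 1) with an intensity trend, 4 group means over the 12 libraries, 8 residual degrees of freedom and Benjamini-Hochberg adjustment within each comparison. The fit was tested on simulated counts with independent libraries and the same spread beyond counting for every gene. Effects shared by libraries of the same replicate number were not simulated. Alternatives changed the libraries fitted, trend, library weights, pseudocount, filter, scaling (median centring, or TMM factors from its published formula) and replicate block. Of 829 list entries, 815 matched the table by symbol and 8 by an older symbol, and 5 with numbered copies were left out. The members and lists were chosen with earlier results of these data known.

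Named genes were the targets, called genes of the largest fold with separated groups and a level at or above the median, the smallest p where fewer than 5 qualified in a direction, up to 10 genes a direction called with siELOVL5 alone, up to 6 called with siELOVL2 alone and the most abundant list members. The remaining genes called with siELOVL5 alone were named after their values were seen. Other exceptions are stated. 3′ UTRs came from GENCODE 29, and each was scanned for 7-base words on its own strand.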

Additional observations from a re-analysis of the deposited data

How the results depend on the processing

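The count of 11 genes called in double knockdown minus siELOVL2 lay between 9 and 12 with a pseudocount of 0.5 or 5, with no low-value filter or a filter at 10, with TMM scaling and with median centring. Leaving out 1 library at a time gave 2 to 16 called genes, all lower, 9 to 39 in siELOVL5 minus control, 2 to 11 genes called lower in both, 9 to 35 called lower in siELOVL5 minus control that lay lower in the main comparison, and 0 to 1 list members called. Where a group then held 2 libraries, the pooled spread of all groups was used. The fit on the compared groups alone gave 1 gene in each comparison, ELOVL5, so the interaction could not be fitted there. Without the intensity trend, 21 genes were called, 5 of them higher, 11 genes lower in siELOVL5 minus control lay lower, and 9 had a called interaction; the cause was not tested. With library weights, 27 were called (26 lower, 1 higher, 3 of them list members), 145 in siELOVL5 minus control, and all 106 called lower there lay lower, 22 of them called. The replicate numbers fell short of the condition for pairing, a correlation over 0.1 for every number: deviations of same-numbered libraries from their group means correlated at 0.166, 0.0277 and 0.212. Still, 5 of 6 libraries were closest to their own number, and FADS2, SCD and FASN ranked the numbers alike in each group, a hint from the data and not from the design. With the replicate block, 12 genes were called lower, 99 in siELOVL5 minus control, 74 of its falls lay lower, and 1 list member (DICER1) was called. Of 134 named genes, 57 that were not called changed sign under at least 1 setting, and no called fall did. Low values limit the result, since a gene with no read could hold a value of up to 0.833 in double-knockdown replicate 1.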
